A study of Mus musculus with 16 samples.

Results

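The genes of the cytosolic ribosomal proteins were followed through RAW264.7 cells, a mouse macrophage line that serves as an osteoclast precursor. Members are the rows of the deposited gene table named Rpl or Rps with a digit, plus Rplp0, Rplp1, Rplp2 and Rpsa. Rps6k kinases and names marked as pseudogenes were left out. A member also had to reach 1 RPKM (reads scaled to gene length and to the reads of the library) in at least 2 libraries. Of 20490 rows, 88 matched by name and 84 also passed by level. These are 46 canonical proteins of the large subunit, 31 of the small subunit and 7 further names (Rps19bp1, Rpl7l1, Rpl22l1, Rps27l, Rpl36al, Rpl37rt and Rps27rt). Fau, which also encodes a ribosomal protein, lies outside the name rule. The cells attached for 12 h and then received PBS, extracellular vesicles (EV) of the human prostate cancer line PC3M at 30 µg/mL, the osteoclast-inducing ligand RANKL as a GST fusion at 10 ng/mL, or EV with RANKL. They were harvested at 48 h or 72 h, which gives 8 groups of 2 libraries (n = 2 per group throughout) in a serum-containing medium common to all groups. Whether 2 libraries of a group stem from different cultures is not in the labels. The p-values therefore reflect the spread among the libraries at hand, which may be technical.

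A ribosome has a large and a small subunit, each built from ribosomal RNA and proteins that are made in matched amounts. Ribosomal protein mRNAs are among the most abundant in a growing cell, and most carry a 5′ terminal oligopyrimidine tract, a C at the cap followed by a run of C and T. Through that tract the kinase mTOR and the cap-binding protein Larp1 control their translation and their stability. Osteoclasts arise when macrophage precursors meet RANKL and fuse.

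The starts of the genes were read from RefSeq promoter windows (GRCm38.p6, 250 bases before to 50 bases after the annotated start), which held 64 of the 84 members. A C followed by at least 4 pyrimidines beginning within 5 bases of the annotated start occurred in 30 of the 64 (46.9%) and in 5718 of all 27025 genes with a window (21.2%). The letters CCGGAAG, searched on both strands, occurred in 25 of the 64 (39.1%) against 9.93% of all genes. AAGATGGC occurred in 6 (9.38%) against 3.19%, and TATAAA in 7 (10.9%) against 15.7%. These are matches of letters only. Among the 22 canonical members with 1 window, such a run and a sequence that could be shown, the 4 with the largest and the 4 with the smallest log2 change from PBS to EV at 72 h are printed, 15 bases on each side of the start, 5′ to 3′, with the C and the pyrimidines after it found closest to the start in capitals (pyrimidines before that C stay in lower case):
Rpl39: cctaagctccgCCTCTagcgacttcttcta
Rps27: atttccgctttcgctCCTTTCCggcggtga
Rps23: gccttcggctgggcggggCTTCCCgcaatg
Rpl15: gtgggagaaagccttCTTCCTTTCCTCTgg
Rpl28: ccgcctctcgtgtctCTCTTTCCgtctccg
Rpl35: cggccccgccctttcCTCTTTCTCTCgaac
Rps2: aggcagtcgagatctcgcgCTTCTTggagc
Rps26: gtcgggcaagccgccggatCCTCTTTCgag
The windows lie at chrX:37085208-37085237 (minus strand), chr3:90213634-90213663 (minus strand), chr13:90923107-90923136 (plus strand), chr14:18270972-18271001 (minus strand), chr7:4792950-4792979 (plus strand), chr2:39005117-39005146 (minus strand), chr17:24720048-24720077 (plus strand) and chr10:128626492-128626521 (minus strand). The log2 change from PBS to EV at 72 h had a median of 0.40 over the 30 members with a run (-0.12 to 0.96) and of 0.36 over the 34 without one (-0.14 to 0.87), and no test was made on this split.

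Depth differed little between libraries, at an estimated 18.4 M to 20.0 M reads. The mitochondrial share of the summed RPKM was 19.3% to 26.9%, and 14779 to 15633 genes were above 0. All 9 listed macrophage markers and all 6 listed osteoclast markers reached the level rule, while 0 of the 3 epithelial, 0 of the 5 stromal and 0 of the 3 other blood cell markers in the table did. The osteoclast markers summed to 94.5 to 1562 RPKM in the 4 EV and EV+RANKL libraries of 72 h and to 15.3 to 810.4 in the 12 others, with 810.4 in RANKL replicate 2 of 72 h. Both sets mix libraries with and without RANKL. At 72 h the marker Acp5 was at 41.5 and 34.0 RPKM in EV, 663 and 435 in EV+RANKL and 166 and 309 in RANKL. In bulk RNA, more cells of a type and more RNA per cell cannot be told apart.

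The members spanned a wide range of levels. Rps26, a small-subunit protein at the mRNA exit, had the highest mean RPKM over the 16 libraries, 1979, followed by Rps12 at 1514 and Rps24 at 1493. The lowest means were those of Rps27rt at 0.669, Rpl37rt at 1.41 and the canonical Rpl29 at 5.19 RPKM. Rps27rt rests on an estimated 4.82 reads per library and Rpl29 on 70.9, against a median of 4382 reads over the 83 members with a known transcript length. Of these 83, 59 had at least 1 annotated pseudogene transcript of 90% identity or more over at least 50% of their length, with a median of 5 and up to 86 per gene. How reads shared with such copies were assigned is not given in the sources used here. Single levels are uncertain to that extent. Just inside the level rule, Rps27rt ranged from 0.283 to 1.38 RPKM. Just outside it, Rpl3l, the muscle paralogue of Rpl3, ranged from 0.159 to 0.687, Rps3a2 from 0 to 0.137 and Rpl39l from 0 to 0.0627, and Rps3a3 was listed at 0 in all 16.

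The members together took 8.67% and 8.24% of the summed RPKM in PBS at 48 h, 8.85% and 8.76% in EV, 9.24% and 9.19% in RANKL, and 9.38% and 9.55% in EV+RANKL. At 72 h the shares were 9.85% and 8.68% in PBS, 11.5% and 11.1% in EV, 9.6% and 11.4% in RANKL, and 11.5% and 11.3% in EV+RANKL. All 4 vesicle libraries of 72 h lay above every library of 48 h and above both PBS libraries of 72 h. With mitochondrial genes left out of the sum, the shares were 13.8% to 15.5% in these 4 libraries and 10.4% to 12.4% in the 8 libraries of 48 h. The 2 RANKL libraries of 72 h went apart: replicate 1 lay below PBS replicate 1 of 72 h, and replicate 2 lay within the range of the vesicle libraries.

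**Figure D1:**
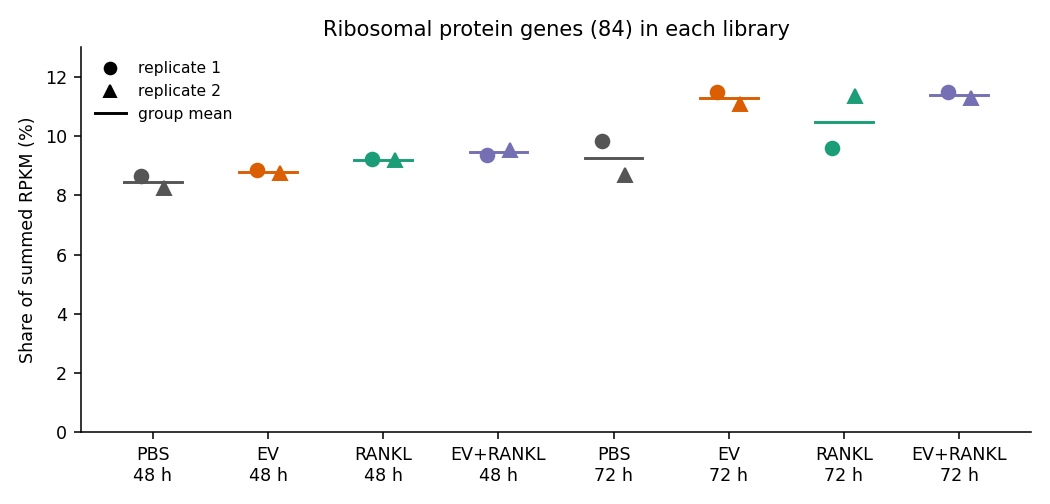
Share of the 84 ribosomal protein genes in the summed RPKM of each library (percent, axis from 0), by treatment and time, with circles for replicate 1, triangles for replicate 2 and a line at the group mean. The 4 vesicle libraries of 72 h sit at 11.1% to 11.5%, and the RANKL libraries of 72 h sit apart at 9.6% and 11.4%.

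The 2 RANKL libraries of 72 h were compared first, since several results rest on them. Replicate 2 was above replicate 1 in 75 of 84 members, with a median log2 difference of 0.37 and a range from -0.37 to 1.31. Over all 10365 genes that passed the level rule the median difference was 0.06 and 60.6% were higher. The median absolute difference between the libraries of a group, over the members, was 0.37 for RANKL at 72 h, 0.21 for PBS at 72 h (replicate 1 higher in 81 of 84), and 0.039 to 0.11 in the other 6 groups. Other transcripts also set RANKL replicate 2 of 72 h apart: the ribosomal RNA row Rn18s-rs5 was at 743 RPKM there and at 75.8 in replicate 1, and the small nuclear RNA gene Rnu1a1 at 30.0 and 0.948. In the 4 vesicle libraries of 72 h, Rn18s-rs5 ranged from 149 to 287 RPKM and in the 8 libraries of 48 h from 64.6 to 164. The part of these differences in the member values was not tested. Across the 84 members, the log2 difference of RANKL replicate 2 from replicate 1 and the log2 change from PBS to EV at 72 h, which share no library, had a Pearson correlation of 0.90 and a Spearman correlation of 0.89. Members are not independent replicates, so this is a description with no test.

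**Figure D2:**
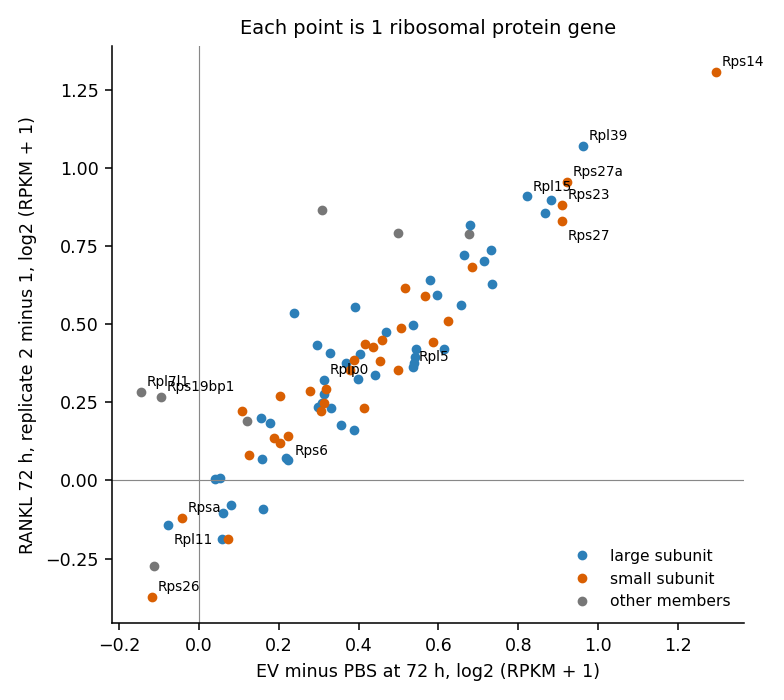
Each point is 1 of the 84 members, coloured by subunit, with the log2 difference between EV and PBS at 72 h (group means of log2 RPKM + 1) on the horizontal axis and that between RANKL replicates 2 and 1 of 72 h on the vertical axis. Rps14 lies at the upper right at 1.29 and 1.31, while Rps26, Rpsa and Rpl11 lie below 0 on both axes.

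Vesicles given for 72 h were set against PBS of 72 h to ask what they do without RANKL. With EV, 44 of 84 members rose and 0 fell (limma over all 16 libraries, Benjamini-Hochberg adjusted p under 0.05), where 10.4% of the 10365 genes tested rose and 7.83% fell. The 44 comprise 25 of 46 large-subunit, 19 of 31 small-subunit and 0 of the 7 other genes. Changes are differences of log2 (RPKM + 1), given ± SE, and understate those of low genes. The median log2 change of the members was 0.39, with a range from -0.14 to 1.29, beside 0.03 over all genes tested. The count was 0 without PBS replicate 2 of 72 h (median 0.27), where 0.299% of all genes rose, and 0 without EV replicate 1 of 72 h (median 0.36), where 0.453% did. It was 46 without PBS replicate 1 (10.2% of all genes rose) and 44 without EV replicate 2 (11.9%). With only these 4 libraries fitted it was 0 (0.0868% of all genes rose), and with no filter on low values it was 22 (4.19%). With both RANKL libraries of 72 h left out of the fit, an alternative chosen after seeing the data, it was 55, and 14.8% of all genes rose. In the same libraries Rn18s-rs5 was at 187 and 75.6 RPKM in PBS and 178 and 201 in EV, and the osteoclast marker Acp5 at 0.642 and 0.437 in PBS and 41.5 and 34.0 in EV. Their part in the result was not tested.

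Rps14, a small-subunit protein whose partial loss is known from an acquired human anaemia, had the largest rise. It was at 96.0 and 81.6 RPKM in PBS and 224 and 213 in EV at 72 h (log2 change 1.29 ± 0.28, adjusted p = 0.013). It was at 74.2 to 107 RPKM over the 8 libraries of 48 h, at 84.4 in RANKL replicate 1 and 210.2 in replicate 2 of 72 h, and at 223 and 233 in EV+RANKL. The 4 vesicle libraries of 72 h and RANKL replicate 2 of 72 h were high, and the other 11 libraries were all lower, at 107 RPKM or less.

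Rpl39, a small protein that lines the exit tunnel of the growing peptide, was at 49.4 and 42.6 RPKM in PBS and 94.2 and 86.6 in EV at 72 h (0.96 ± 0.23, adjusted p = 0.0182). It was at 40.01 to 53.7 over the libraries of 48 h, at 52.9 and 112 in the RANKL libraries of 72 h and at 105 and 109 in EV+RANKL. Rps27a, made as a fusion with ubiquitin, was at 163 and 150.2 RPKM in PBS and 316 and 280.1 in EV (0.92 ± 0.21, adjusted p = 0.0154). Rps27, a small-subunit zinc-finger protein, was at 224 and 194 RPKM in PBS and 418 and 369 in EV (0.91 ± 0.19, adjusted p = 0.0129). For all 3 genes both EV libraries of 72 h lay above both PBS libraries of 72 h and all 8 libraries of 48 h. Rps23 (0.91), Rpl35a (0.88), Rpl13 (0.87) and Rpl15 (0.82) also rose by more than 0.8 on the log2 scale, and the other 36 called members rose by 0.31 to 0.73.

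At the other end, the 3 members with the smallest spread over the 8 group means, chosen by that rule, had changes near 0. PBS and EV of 72 h are among those groups, so small changes between them follow from the choice. Rpsa, a small-subunit protein first described as a laminin receptor, was at 1276 and 1096 RPKM in PBS and 1169.6 and 1127 in EV at 72 h (log2 change -0.04 ± 0.10, adjusted p = 0.781). Rps26 was at 2167 and 2063 RPKM in PBS and 2021 and 1879 in EV (-0.12 ± 0.12, adjusted p = 0.493), and Rpl11 at 351 and 311 RPKM in PBS and 319.6 and 306 in EV (-0.08 ± 0.09, adjusted p = 0.558). The groups of Rpsa and Rpl11 overlapped and those of Rps26 did not. SDs of the log2 group means were 0.050 for Rpsa, 0.061 for Rps26 and 0.065 for Rpl11, against 0.63 for Rps14, 0.53 for Rpl39 and 0.53 for Rps27. In all, 22 members passed in no comparison, among them Rps26, Rps12, Rpsa, Rpl11, Rplp2, Rpl19, Rpl28, Rpl35, Rps2 and Rps19bp1. The same count over all genes tested was not made, so it does not measure how steady these members are.

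**Figure D3:**
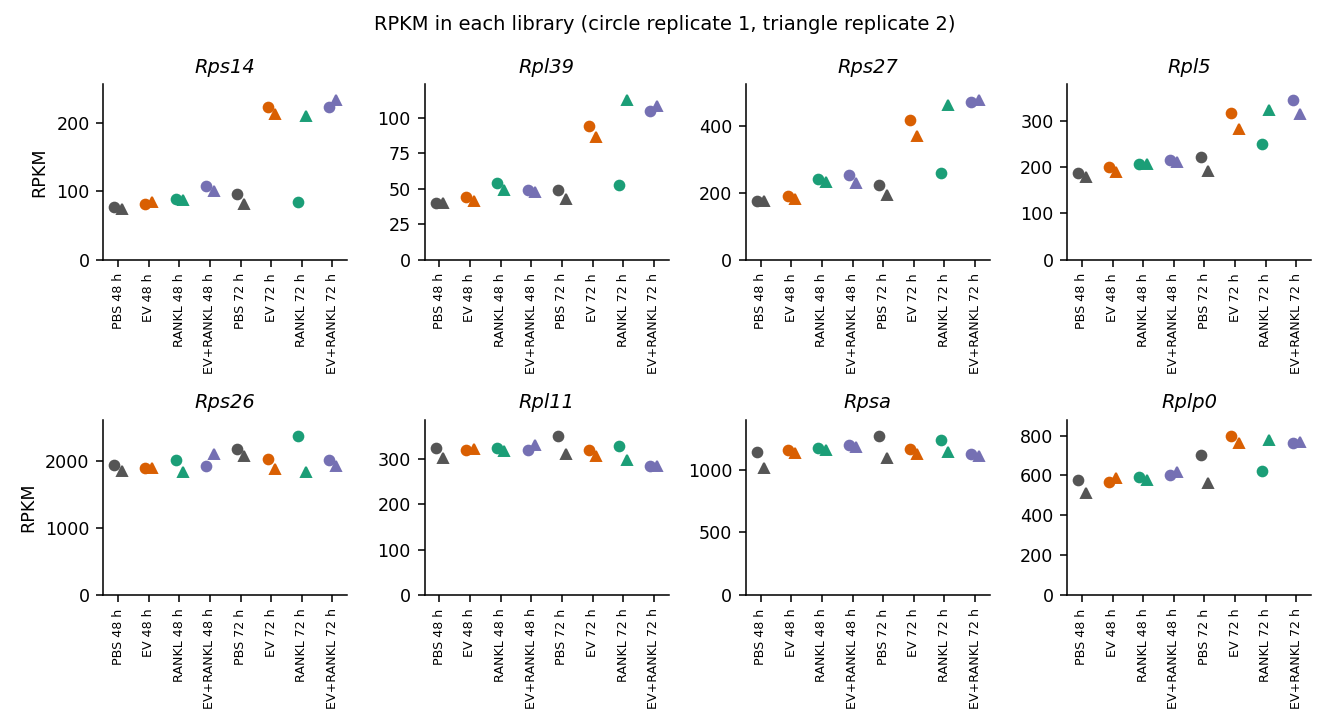
RPKM of 8 members in each library (axis from 0, circles replicate 1, triangles replicate 2). Rps14, Rpl39 and Rps27 are high in the 4 vesicle libraries of 72 h and in RANKL replicate 2 of 72 h, while Rps26 spans 1830.0 to 2370.5 RPKM with no such step.

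Rplp0, Rplp1 and Rplp2 form the stalk that recruits elongation factors, and none passed with EV at 72 h: their log2 changes were 0.31 ± 0.13, adjusted p = 0.0937, 0.33 ± 0.12, adjusted p = 0.0794 and 0.24 ± 0.16, adjusted p = 0.295. Rpl5 and Rpl11 bind 5S ribosomal RNA as 1 particle that also restrains Mdm2. Rpl5 rose, from 221 and 192 to 318 and 282 RPKM (0.54 ± 0.12, adjusted p = 0.0155), while Rpl11 did not pass (-0.08), and the difference between the genes was not tested. Rpl10, which joins the large subunit late, was at 259.9 and 231 RPKM in PBS and 427 and 379 in EV and rose by 0.71 ± 0.17, adjusted p = 0.0172. Rpl3, a protein near the peptidyl transferase centre, was at 369 and 289 RPKM in PBS and 535 and 468 in EV and rose by 0.61 ± 0.14, adjusted p = 0.0155. Rpl13a, which also silences inflammatory mRNAs in macrophages, was at 147 and 119.6 RPKM in PBS and 205 and 183 in EV and rose by 0.54 ± 0.13, adjusted p = 0.0177. Rps6, the substrate of the S6 kinases, was at 885 and 801 RPKM in PBS and 1054 and 919 in EV and did not pass (0.22 ± 0.10, adjusted p = 0.118), and neither did Rps3 (0.20), Rps4x (0.12) or Rpl38 (0.31).

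Rps19, the gene most often mutated in Diamond-Blackfan anaemia, was at 45.8 and 40.9 RPKM in PBS and 58.5 and 57.5 in EV and rose by 0.41 ± 0.09, adjusted p = 0.0144. Rps25, which supports entry of ribosomes at internal sites, was at 667 and 596 RPKM in PBS and 861 and 823 in EV and rose by 0.42 ± 0.12, adjusted p = 0.0371. Both genes had EV libraries above both PBS libraries of 72 h. Rps19bp1, a nucleolar protein that binds Rps19 and is no part of the ribosome, was at 10.5 and 11.04 RPKM in PBS and 9.67 and 10.4 in EV and did not pass (-0.10 ± 0.11, adjusted p = 0.56).

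**Figure D4:**
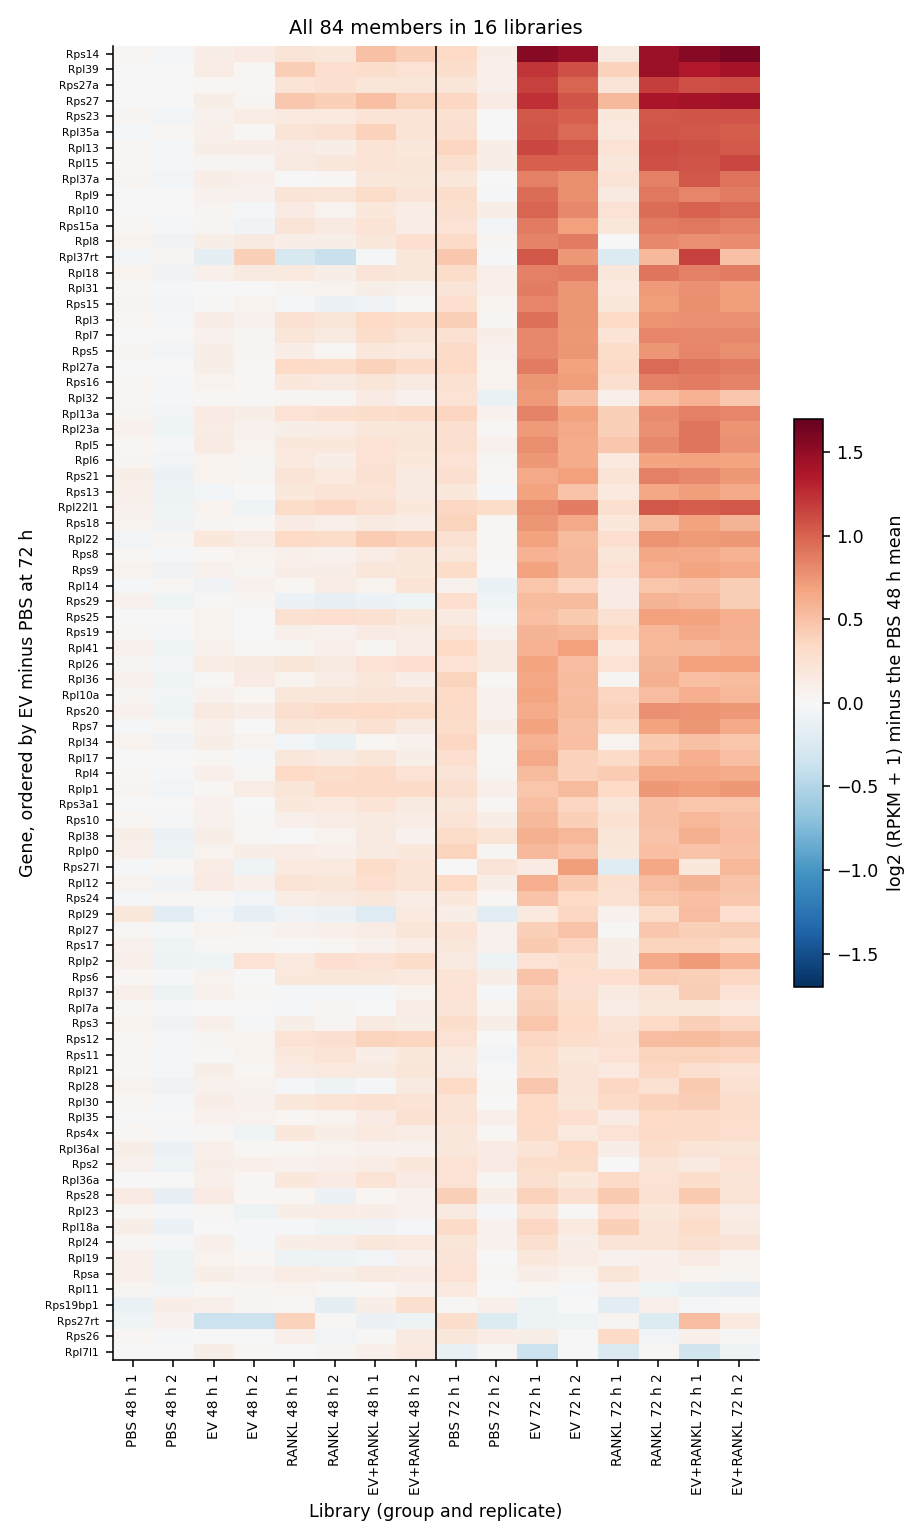
Log2 (RPKM + 1) of all 84 members in 16 libraries, relative to the mean of PBS at 48 h (red higher, blue lower), ordered from the largest to the smallest change between PBS and EV at 72 h. The red block covers the 4 vesicle libraries of 72 h and RANKL replicate 2, starts with Rps14 at the top and fades towards Rps26 and Rpl7l1.

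With vesicles for 48 h, 0 of the 84 members passed in either direction against PBS with limma, where 0.608% of all genes rose and 0.685% fell. At an unadjusted p under 0.05 the members again numbered 0, where 5.62% of all genes were higher and 5.56% lower. The median log2 change was 0.05, from -0.36 to 0.15, beside 0.03 over all genes, and the smallest adjusted p was 0.507. In an added fit to the 48 h libraries alone the count was again 0, with 506 of 10365 genes called. Rps14 was at 77.1 and 74.2 RPKM in PBS and 81.9 and 83.7 in EV at 48 h (0.13 ± 0.28, adjusted p = 0.968), and Rps26 at 1936 and 1841 in PBS and 1895 and 1891 in EV (0.00 ± 0.12, adjusted p = 0.999). The test of whether the EV change differed between 72 h and 48 h called 0 members, where 0.0193% of all genes were higher and 0% lower. At an unadjusted p under 0.05, 35 members were higher and 0 lower, where 10.1% of all genes were higher and 9.33% lower. The median log2 difference was 0.33, beside 0.01 over all genes. Without EV replicate 2 of 72 h it called 1 member, where 5.01% of all genes were higher. With both RANKL libraries of 72 h left out, chosen after seeing the data, it called 18 members, all higher, with Rps14 at 1.16 ± 0.12 (adjusted p = 0.00288), where 2.61% of all genes were called.

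With RANKL for 48 h the osteoclast enzyme gene Acp5 was at 88.0 and 85.4 RPKM, against 0.564 and 0.872 in PBS. With all 16 libraries in the fit, 0 of 84 passed in either direction, where 6.47% of all genes rose and 8.29% fell. At an unadjusted p under 0.05, 7 were higher and 0 lower, where 15.9% of all genes were higher and 13.1% lower. The median log2 change was 0.13, from -0.33 to 0.43, beside 0.06 over all genes. The count depended on the libraries fitted: 17 members, all higher, were called with PBS and RANKL of 48 h alone, where 13.5% of all genes rose. With the 8 libraries of 48 h, a fit added after seeing the data, 25 were called, all higher, where 17.8% of all genes rose. Quantile normalization gave 9, where 6.82% rose. In the added fit Rps27 changed by 0.43 ± 0.062 (adjusted p = 0.00184), Rpl39 by 0.35 ± 0.063 (adjusted p = 0.00477) and the paralogue Rpl22l1 by 0.33 ± 0.083 (adjusted p = 0.0181).

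Per library at 48 h, Rps27 was at 176 and 176 RPKM in PBS, 189 and 181 in EV, 241 and 232 in RANKL and 252 and 229 in EV+RANKL. Rpl39 was at 40.1 and 40.01 RPKM in PBS, 43.9 and 41.2 in EV, 53.7 and 48.9 in RANKL and 49.3 and 47.9 in EV+RANKL. In both genes the RANKL and the EV+RANKL libraries lay above all PBS and EV libraries of 48 h. Rps29 (-0.12), Rpl19 (-0.09) and Rpl37rt (-0.33) had negative log2 changes with RANKL at 48 h that did not pass.

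With RANKL for 72 h against PBS, 8 of 84 members rose and 0 fell, where 9.73% of all genes rose and 9.13% fell. At this adjusted threshold the members' share was close to the background. Before adjustment (p under 0.05), 35 members were higher and 0 lower, where 16.7% of all genes were higher and 15.7% lower. The median log2 change of the members was 0.25, beside -0.00 over all genes. Rpl39 rose by 0.74 ± 0.23, adjusted p = 0.0429, Rps27 by 0.73 ± 0.19, adjusted p = 0.0202 and Rpl5 by 0.46 ± 0.12, adjusted p = 0.0192, and Rpl23a (0.45), Rps25 (0.42), Rpl4 (0.41), Rps20 (0.39) and Rps19 (0.30) rose too. Rpl5 was at 221 and 192 RPKM in PBS and 251 and 323 in RANKL at 72 h. The count rested on RANKL replicate 2: it was 0 without that library (median 0.08), where 3.7% of all genes rose, and 50 without replicate 1 (median 0.41), where 16.3% did. It was also 0 without PBS replicate 2 (median 0.14; 4.82% of all genes rose) and with these 4 libraries alone (2.08%), 2 with no filter (4.83%) and 24 with quantile normalization (10.6%).

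The difference of the RANKL change between 72 h and 48 h called 0 members, where 0.0289% of all genes were higher and 0% lower. It also called 0 at an unadjusted p under 0.05, where 6.06% of all genes were higher and 5.54% lower. The median over the members was 0.10, beside -0.03 over all genes. Without RANKL replicate 1 of 72 h it called 14 members, all higher (median 0.30), where 2.21% of all genes were higher. Without replicate 2 the median was -0.07 over the members and also -0.07 over all genes.

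EV added to RANKL was set against RANKL alone to ask what vesicles do on top of it. At 48 h, 0 members passed in either direction, where 0.27% of all genes rose and 0.164% fell. At an unadjusted p under 0.05, 1 member was higher (Rps19bp1, 0.27 ± 0.11, adjusted p = 0.529, named after its value was seen), where 4.25% of all genes were higher and 3.80% lower. The median was 0.05, beside 0.00 over all genes. At 72 h, 0 passed, where 1.3% of all genes rose and 0.531% fell, and the median was 0.18, beside -0.02. At an unadjusted p under 0.05, 9 members were higher and 0 lower, where 9.74% of all genes were higher and 11.3% lower. Rps14 was at 84.4 and 210.2 RPKM in RANKL and 223 and 233 in EV+RANKL (0.77 ± 0.28, adjusted p = 0.146). Against RANKL replicate 1 alone, 46 members rose (median 0.38), where 10.3% of all genes rose with a median of 0.02. Against replicate 2 alone 0 passed (median -0.00), where 0.0579% of all genes rose with a median of -0.05. In these 2 fits the remaining RANKL library is assumed to vary like the other groups.

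Time was tested within each treatment. In PBS, 0 members passed between 48 h and 72 h, where 0.145% of all genes rose and 0.502% fell. At an unadjusted p under 0.05, 1 member was higher (Rpl38, 0.27 ± 0.11, adjusted p = 0.336), where 6.21% of all genes were higher and 5.07% lower. The median log2 change was 0.16, beside 0.01 over all genes, and it was 0.05 without PBS replicate 1 of 72 h and 0.26 without replicate 2. In EV, 60 of 84 rose and 0 fell (17.4% and 14.9% of all genes), with a median of 0.47, beside 0.02. In EV+RANKL, 50 rose and 0 fell (17.4% and 21.5% of all genes), with a median of 0.43, beside -0.02. Of the 60 and the 50, 48 were the same genes, which is 80.0% of the first list and 96.0% of the second. The overlap over all genes called was not counted, so it has no background to be read against. When 1 library was left out, the EV count was 17 without EV replicate 1 of 72 h (3.88% of all genes rose), 60 without its replicate 2 (17.2%), and 36 and 28 without EV replicate 1 or 2 of 48 h (6.88% and 6.65%). The EV+RANKL count was 15 without EV+RANKL replicate 1 of 72 h (6.67%), 40 without its replicate 2 (12.1%), and 33 and 17 without replicate 1 or 2 of 48 h (11.8% and 6.15%).

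The largest rises over time were again those of Rps14, 1.39 ± 0.28, adjusted p = 0.00506 in EV and 1.13 ± 0.28, adjusted p = 0.00794 in EV+RANKL, of Rps27, 1.08 ± 0.19, adjusted p = 0.00371 and 0.98 ± 0.19, adjusted p = 0.00278, and of Rpl39, 1.07 ± 0.23, adjusted p = 0.00677 and 1.12 ± 0.23, adjusted p = 0.00363. Rps6, which had not passed between EV and PBS, rose with time in EV (0.37 ± 0.10, adjusted p = 0.0154), and so did Rplp0 (0.44 ± 0.13, adjusted p = 0.0203) and Rplp1 (0.42 ± 0.12, adjusted p = 0.0229). Rplp1 also rose with time in EV+RANKL (0.39 ± 0.12, adjusted p = 0.0255). Rpl11 had a log2 change of -0.04 ± 0.09, adjusted p = 0.784 in EV and -0.19 ± 0.09, adjusted p = 0.112 in EV+RANKL and did not pass.

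In RANKL alone, 4 members rose with time and 0 fell, where 3.45% of all genes rose and 2.58% fell: Rps15 (0.52 ± 0.14, adjusted p = 0.048), Rpl23a (0.48 ± 0.13, adjusted p = 0.0464), Rpl5 (0.46 ± 0.12, adjusted p = 0.0469) and Rps19 (0.37 ± 0.09, adjusted p = 0.0385). Before adjustment (p under 0.05), 37 members were higher and 0 lower, where 13.2% of all genes were higher and 15.3% lower. The median log2 change was 0.27, beside -0.02 over all genes. Rps15 was at 556 and 531 RPKM at 48 h and 654 and 932 at 72 h. Rpl23a, which lies near the peptide exit, was at 576 and 589 at 48 h and 714 and 926 at 72 h. For both, the 2 libraries of 72 h lay above those of 48 h and far from each other. The count rose without RANKL replicate 1 of 72 h and fell without its replicate 2 or without either RANKL library of 48 h. The number of all genes that rose moved the same way each time.

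**Figure D5:**
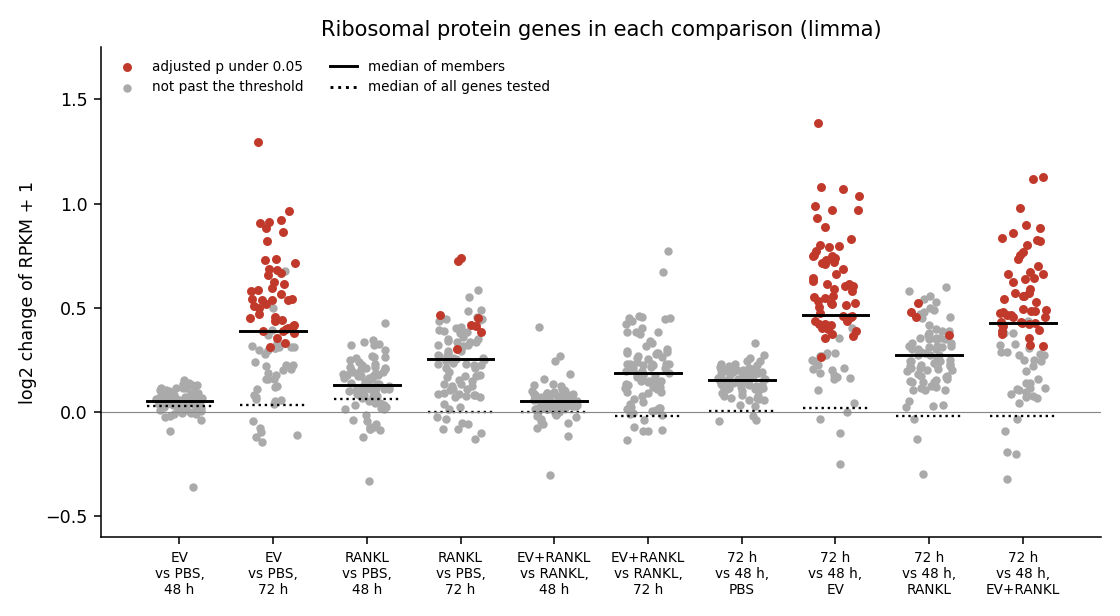
Log2 change of every member in 10 comparisons (1 point per gene, red where the limma adjusted p is under 0.05), with the median of the members as a solid line and that of all 10365 genes tested as a dotted line. Red points fill the columns of EV at 72 h and of time in EV and EV+RANKL, and no member is red in the columns of EV at 48 h or RANKL at 48 h.

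Some members have a paralogue in the set. Rpl22l1, the paralogue of Rpl22, was at 6.82% to 8.80% of the Rpl22 level over the libraries of 48 h at 8.94% to 10.04% in the PBS libraries of 72 h and at 9.32% to 11.1% over the 4 vesicle libraries of 72 h, so the ranges of PBS and vesicles overlapped. It was at 8.16% in RANKL replicate 1 and 10.98% in replicate 2 of 72 h. Rpl22l1 rose with time in EV (0.83 ± 0.18, adjusted p = 0.00639) and in EV+RANKL (0.82 ± 0.18, adjusted p = 0.00444). Rpl7l1, which takes part in making ribosomes, was at 17.2% to 20.2% of Rpl7 over the libraries of 48 h, at 15.1% to 19.1% in PBS at 72 h and at 8.68% to 11.8% over the vesicle libraries of 72 h, where Rpl7 rose by 0.60 ± 0.15, adjusted p = 0.019 from PBS to EV and Rpl7l1 changed by -0.14 ± 0.13, adjusted p = 0.44. In the RANKL libraries of 72 h, Rpl7l1 was at 14.2% (replicate 1) and 11.5% (replicate 2) of Rpl7, also below PBS. Rps27l, which p53 can induce, was at 26.9% to 33.2% of Rps27 at 48 h and at 25.9% to 34.5% in PBS at 72 h. It was at 13.9% to 25.6% in the vesicle libraries of 72 h. Both RANKL libraries of 72 h lay within that vesicle range, at 19.2% and 19.8%. Rpl36al stayed within 54.8% to 70.4% of Rpl36a in all 16 libraries, and neither gene passed in any comparison.

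Fau, outside the name rule, was at 467 and 410.1 RPKM in PBS and 512 and 465 in EV at 72 h and did not pass (0.16 ± 0.10, adjusted p = 0.255). Gnb2l1, the older name of Rack1, a scaffold on the small subunit, rose by 0.56 ± 0.14, adjusted p = 0.0193, from 169 and 139.8 to 236 and 220.2 RPKM.

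Other genes of the pathway were taken from lists, for EV against PBS at 72 h, where 10.4% of all genes rose and 7.83% fell with a median of 0.03. With only the EV and PBS libraries of 72 h fitted, 9 of all 10365 genes rose and 1 fell. The list counts below therefore depend on the libraries fitted, as those of the members do, and were not repeated under the alternatives. Of 23 tested translation factors and further mRNAs with a pyrimidine tract, 8 rose and 2 fell, with a median log2 change of 0.16. Tpt1, a growth-linked protein with such a tract, rose by 0.73 ± 0.16, adjusted p = 0.0155 and the initiation factor subunit Eif3f by 0.66 ± 0.15, adjusted p = 0.0164. The elongation factor Eef1a1 rose by 0.44 ± 0.12, adjusted p = 0.0246, from 3992 and 3534 to 5548 and 4696 RPKM, and Eef2 did not pass (0.29 ± 0.12, adjusted p = 0.114).

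Of 63 ribosome biogenesis genes, which process ribosomal RNA and assemble subunits, 2 rose and 16 fell, with a median of -0.24. Rrs1, needed for the large subunit, changed by -0.83 ± 0.13, adjusted p = 0.00596 and the nucleolar Lyar by -1.07 ± 0.21, adjusted p = 0.0118. Nucleolin (Ncl) fell from 224 and 259 to 123 and 183 RPKM (-0.68 ± 0.17, adjusted p = 0.0205) and fibrillarin (Fbl) from 202 and 207 to 116 and 168 (-0.54 ± 0.15, adjusted p = 0.0263). Nucleophosmin (Npm1) was at 787 and 746 RPKM in PBS and 772 and 804 in EV and did not pass (0.04 ± 0.10, adjusted p = 0.8). With time, 37 biogenesis genes fell and 2 rose in EV (14.9% and 17.4% of all genes), and 43 fell and 0 rose in EV+RANKL (21.5% and 17.4%). In RANKL alone 4 fell and 0 rose (2.58% and 3.45%). Before adjustment (p under 0.05), 35 were lower and 0 higher there, where 15.3% of all genes were lower and 13.2% higher. In PBS 0 passed. The medians over time were -0.42 in EV, -0.49 in EV+RANKL, -0.32 in RANKL and -0.10 in PBS.

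Of 77 mitochondrial ribosomal protein genes, which serve the ribosome of mitochondria, 4 rose and 7 fell with EV at 72 h, with a median of -0.05, and both counts are near or below the shares over all genes. Mrps18b changed by -0.67 ± 0.11, adjusted p = 0.00614 and Mrps36 by -0.60 ± 0.13, adjusted p = 0.0142. Of 20 tested genes of mTOR, Larp1 and S6 kinase control, 2 rose and 5 fell, with a median of 0.03. Pdcd4, a translation inhibitor, rose by 1.14 ± 0.22, adjusted p = 0.0109, and the cap-binding factor Eif4e changed by -0.79 ± 0.15, adjusted p = 0.0116. Pdcd4 also rose with RANKL against PBS (limma), by 1.12 ± 0.22, adjusted p = 0.00402 at 48 h and 2.01 ± 0.22, adjusted p = 0.000102 at 72 h. Larp1 fell from 56.8 and 62.5 to 36.1 and 47.0 RPKM (-0.52 ± 0.11, adjusted p = 0.0129), and Mtor was at 7.17 and 7.38 RPKM in PBS and 6.97 and 8.20 in EV and did not pass (0.05 ± 0.10, adjusted p = 0.761).

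With RANKL at 48 h, where 6.47% of all genes rose and 8.29% fell, 2 of 23 tract mRNAs, 2 of 63 biogenesis genes and 5 of 77 mitochondrial ribosomal protein genes rose and 0 fell. Of 20 control genes, 2 rose and 2 fell. Pabpc1, the poly(A)-binding protein, rose by 0.33 ± 0.08, adjusted p = 0.0178, and Mrps6 by 1.09 ± 0.18, adjusted p = 0.00129. Myc, a transcription factor that drives ribosome production, was at 2.47 and 3.67 RPKM in PBS and 28.4 and 48.7 in RANKL at 48 h (3.25 ± 0.33, adjusted p = 5.89e-05), and at 3.01 and 1.80 RPKM in PBS and 3.37 and 3.09 in EV at 72 h, where it did not pass (0.34 ± 0.33, adjusted p = 0.487). The groups of Myc in the vesicle comparison at 72 h did not overlap. These values set RANKL at 48 h beside EV at 72 h. In EV at 48 h Myc was at 7.51 and 14.9 RPKM, and in RANKL at 72 h at 8.78 and 13.5.

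Features of the transcripts were set beside the log2 change from PBS to EV at 72 h over the 83 members with a transcript in GENCODE M21. Pearson correlations were -0.18 with transcript length, -0.00 with GC content and -0.03 with the number of pseudogene transcripts, and -0.10 with the mean level over all 84. For RANKL against PBS at 48 h the correlation with GC content was -0.41. Genes share libraries and are not independent, so these are descriptions.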

How the data were processed

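RNA of 16 libraries from RAW264.7 cells (8 groups of 2) was measured by mRNA sequencing. The authors deposited 1 table of 20490 genes. How its deposited log2 values were made is not stated in the labels or the header, and from the values alone the unit was read as log2 (RPKM + 1), because under base 2 71.6% of 40289 low values lay within 0.05 of a whole multiple of 1 read (58.1% under base e, 35.9% under base 10). Depth was estimated from those steps and is not a count of reads. FastQC, HISAT2 and Partek are named, with the build GRCh38 (hg38), per the submitters' processing notes. The row names are mouse symbols, and for the mouse build, annotation and counting the entry is: not given in the sources used here. One column name of the EV+RANKL group at 48 h lacks the letter that marks RANKL in the sample titles. It was placed in that group because its plus sign occurs only in titles of cells given both agents, it is called replicate 2, and it was left out of the fit with the replicate block.

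Genes had to reach 1 RPKM in 2 libraries or more, which left 10365. They were fitted with limma 3.58.1 (R 4.3.3, trended variance, 8 group means, all 16 libraries), and p-values were adjusted by Benjamini-Hochberg over all of them for each of 12 comparisons, with a threshold of 0.05. The fitting code was tested on simulated data. Percentages and ranges were computed with Python 3.11.15 and pandas 2.3.3. Transcript lengths, GC content and pseudogene copies came from GENCODE M21 with blastn 2.17.0. Protein sequences were not analysed here, and 1 gene of the named set is not reported here.

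Named members are the 3 largest rises and falls in each comparison, the 3 highest and lowest mean levels, the 3 largest and smallest SDs of group means, and a set by role. Of each list, the 2 genes of smallest adjusted p with EV at 72 h are named. For RANKL at 48 h only the gene of smallest adjusted p is named, and none of the biogenesis list. The members and lists were chosen with earlier results of these data known. Further members are named where a count is spelled out (RANKL at 72 h) or as examples, and were chosen after their values were seen. Alternatives were another pseudocount (0.1), no filter, median centring, quantile normalization, only the groups compared, the replicate block and leaving out each library. Fits to the 48 h libraries alone, or without the RANKL libraries of 72 h, were chosen after seeing the data.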

Additional observations from a re-analysis of the deposited data

How the results depend on the processing

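With 2 libraries per group, counts of called members depended on single libraries and on which libraries shared the estimate of the spread. Leaving out 1 library in turn gave 0 to 46 members for EV against PBS at 72 h, 0 to 50 for RANKL against PBS at 72 h, 0 to 46 for EV+RANKL against RANKL at 72 h, 17 to 60 for time in EV, 0 to 53 for time in RANKL, 15 to 40 for time in EV+RANKL, 0 to 1 for the difference of the EV change between times, and 0 to 14 for that of the RANKL change. Fitting only the groups compared gave 0 for EV at 72 h (0.0868% of all genes rose), 17 for RANKL at 48 h (13.5%) and 0 for RANKL at 72 h (2.08%). It gave 38 for time in EV (7.44% of all genes rose) and 65 for time in EV+RANKL (21% rose and 24% fell). For time in RANKL it called 0 members and 0 of all 10365 genes. With no filter on low values the counts were 22 for EV at 72 h (4.19% of all genes rose) and 2 for RANKL at 72 h (4.83%). For time in RANKL the count was 0 (0.48%). Quantile normalization gave 9 for RANKL at 48 h (6.82%) and 24 for RANKL at 72 h (10.6%). The 48 h libraries alone gave 25 for RANKL at 48 h (17.8%). Leaving out the RANKL libraries of 72 h gave 18 for the difference of the EV change (1.53% of all genes higher). The share of all genes called moved in these fits as well. The cause was not tested.

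Same-numbered libraries did not deviate together in every pair of groups (21 correlations, -0.04 to 0.53, 11 above 0.1), so the numbers were not taken to pair the samples. The fit with the replicate number as a block also lacks EV+RANKL replicate 2 of 48 h. For time in EV+RANKL this leaves 1 library of 48 h. It called fewer members there than the 50 found with all libraries and no block, where 17.4% of all genes rose. Fewer of all genes rose too, and the same held when that library alone was left out. For EV at 72 h the fit with the block called 37, where 11.2% of all genes rose and 8.96% fell. For time in EV the fit with the block called 62, where 18.1% of all genes rose and 16.5% fell. Of 54 changes of named members, 0 reversed under any alternative. All 54 stayed past the threshold with a pseudocount of 0.1, 53 with median centring, 45 with quantile normalization, 45 with the block, 41 with no filter and 26 with only the groups compared. Leaving out 1 library kept 125 of 216. At an estimated 18.4 M to 20.0 M reads per library, depth limits mainly the low members.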
